A study of Mus musculus with 10 samples.

Results

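The 10 genes described here are interferon-stimulated antiviral genes of the mouse, chosen by name as a set of type I interferon targets and measured among 770 gene probes in tumors grown in wild-type (WT) and *Siah2*-deficient mice. They are the RNA-binding *Ifit1*, *Ifit2* and *Ifit3*, the ubiquitin-like modifier *Isg15*, the oligoadenylate synthetase genes *Oas2*, *Oas3* and *Oasl1*, the transcription factor *Irf7*, the membrane tether *Bst2* and the dynamin-like GTPase *Mx1*. YUMMER1.7 cells, a mouse melanoma line with mutant *Braf*, without *Cdkn2a*, and with a high load of somatic mutations, were injected under the skin of syngeneic C57BL/6 male mice that were either WT or carried a *Siah2* deletion in every cell. The mice were aged between 6 and 10 weeks per the paper's reporting summary, and the paper's legend for tumor growth gives a younger range. The injected cells were the same in both groups and kept their own *Siah2*, a ubiquitin ligase, so only the cells of the host differed in genotype. RNA from 5 WT tumors (WT2 to WT6) and 5 Siah2 KO tumors (KO1, KO2, KO3, KO5 and KO6), taken on day 11 per the labels and day 10 per the paper's legend, was counted with a NanoString immune panel that has no probe for *Siah2*, so the genotype could not be checked from these values. The labels do not say whether the tumors of a group came from separate animals, and p-values therefore measure only the spread between these tumors.

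Type I interferons are secreted when sensors detect foreign or misplaced nucleic acid, and they act through the receptor formed by IFNAR1 and IFNAR2. The receptor's kinases JAK1 and TYK2 lead to assembly of the complex ISGF3, which contains STAT2 and IRF9 and binds interferon-stimulated response elements near the target genes. Interferon gamma, a product of T cells and NK cells, signals through a receptor of its own to gamma-activated sites, and many genes respond to both kinds of interferon. In tumors these programs can run in the cancer cells, in infiltrating leukocytes and in stroma, and a bulk measurement sums over all of them, so that fewer cells of a type and less RNA per cell cannot be told apart.

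To show what the members share in sequence, the promoter windows of RefSeq (GRCm38.p6, 250 bases before to 50 bases after the start) were searched on both strands for the core of the response element, GAAANNGAAA. Windows were listed for 8 members and 5 of them held the core (62.5%), against 3.44% of the 32851 windows of the table and 8.83% of 566 panel genes. The core was not particular to the members, as it was also in 5 of 11 interferon gamma responsive genes (45.5%) and 5 of 15 other interferon-stimulated genes (33.3%) of the lists described further on. The stretches with matches are printed on the gene's own strand with 15 flanking bases, the matches in capitals, and overlapping matches run together.
Isg15, chr4:156200860-156200911, minus strand: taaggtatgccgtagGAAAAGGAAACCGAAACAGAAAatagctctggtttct
Oas3, chr5:120777710-120777749, minus strand: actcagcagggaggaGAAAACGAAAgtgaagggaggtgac
Bst2, chr8:71537572-71537617, minus strand: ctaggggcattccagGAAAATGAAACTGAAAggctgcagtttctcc
Ifit3, chr19:34583358-34583431, plus strand: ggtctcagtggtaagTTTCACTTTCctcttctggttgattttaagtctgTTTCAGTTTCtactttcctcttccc
Ifit1, chr19:34640770-34640828, plus strand: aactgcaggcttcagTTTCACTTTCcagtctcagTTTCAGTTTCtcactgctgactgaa
*Isg15* held 3 overlapping matches and *Bst2* held 2, *Oas3* held 1, and the 2 matches each of *Ifit3* and *Ifit1* lay on the opposite strand. No match was found in the windows of *Ifit2*, *Oasl1* and *Irf7*, which says only that these letters are absent from those windows. The shorter gamma-activated motif TTCNNNGAA was in the windows of 2 of the 8 members, or 25.0%, against 8.30% of all windows, 14.1% of the panel genes and 36.4% of the interferon gamma responsive genes. *Ifit1*, *Ifit2* and *Ifit3* lie in 1 cluster on chromosome 19, between 34550550 and 34650009, while *Oas2*, *Oas3* and *Oasl1* are on chromosome 5.

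The values are normalized counts, that is counts after subtraction of a background and scaling to 20 reference genes, with a floor of 1 before scaling and no value under 1 after it. The floor thus stood at 1.0 in WT tumors with a factor under 1, and at the tumor's own factor in the Siah2 KO tumors. Probes near the floor therefore differ slightly between the genotypes through the floor itself. Before scaling, the probes of a tumor summed to 443503 to 578696 counts (WT) and 382885 to 581617 counts (Siah2 KO). The scaling factors ranged from 0.918 to 1.32 (WT) and from 1.03 to 1.60 (Siah2 KO). Over all 770 probes, limma on log2(value + 1) called 241 probes, or 31.3%, higher and 75, or 9.74%, lower in Siah2 KO tumors at a Benjamini-Hochberg adjusted p under 0.05, so that a call toward higher values was common on this panel. With the tumors scaled to equal medians of the endogenous probes instead, the split was 163 higher and 152 lower.

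Most of the antiviral genes rose in Siah2 KO tumors. Of the 10 genes, 7 were called higher (*Ifit2*, *Ifit3*, *Isg15*, *Oas2*, *Oas3*, *Irf7* and *Bst2*), 0 were called lower, and *Ifit1*, *Oasl1* and *Mx1* did not pass, against the 31.3% of all probes that were called higher. Their median log2 fold change was 0.65, with or without *Mx1*, and that of all probes was 0.24. The number called depended on the scaling, being 3 with median scaling (21.2% of all probes called higher) and 2 with quantile normalization (19.9%). It was 0 relative to leukocyte genes (10.1%), where *Ifit1* and *Oas2* turned to lower values, as *Ifit1* did with quantile normalization. Scaling to the deposited positive control values also called 0 (7.79%), but it may take off each tumor's factor once too often, as described below. For *Isg15*, *Oas3* and *Bst2* the lowest Siah2 KO tumor exceeded the highest WT tumor, which held for 24.5% of all probes. Except for *Mx1*, every gene was detected, with a mean over 20 normalized counts.

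**Figure D1:**
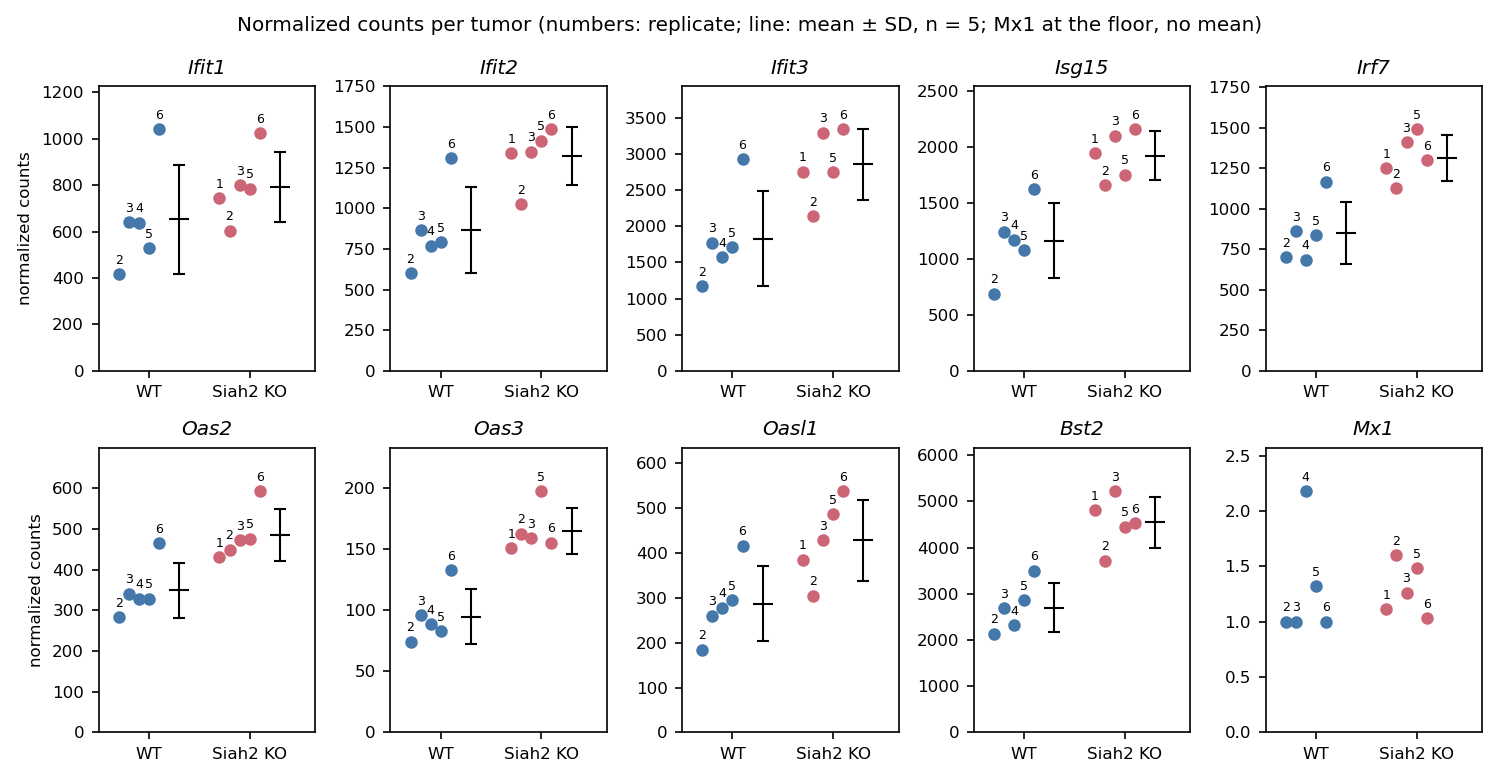
Normalized counts (vertical axes, linear from 0) of each gene in the 5 WT tumors (blue) and the 5 Siah2 KO tumors (red), numbered by replicate, with the mean ± SD of each group as a black cross line. The groups are apart for *Isg15*, *Oas3* and *Bst2*, WT6 is the highest WT tumor in every panel except that of *Mx1*, and *Mx1* has no mean because all but 1 of its values are at the floor.

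The *Ifit* genes encode proteins that bind viral RNA and block its translation. *Ifit2* was 601, 864, 769, 792 and 1309 normalized counts in WT2 to WT6, and 1339, 1024, 1347, 1415 and 1484 in KO1, KO2, KO3, KO5 and KO6. All Siah2 KO tumors were above 4 of the WT tumors, and only KO2 was below WT6. The Siah2 KO mean was 1322 ± 177 and the WT mean 867 ± 265 (SD, n = 5 each). Their log2 fold change was 0.65 with a standard error of 0.19 (adjusted p = 0.0230 by limma, and 0.0159 by the two-sided exact permutation test over all divisions of the tumors, which cannot go below 0.00794). *Ifit2* lost its call without WT4, at an adjusted p of 0.0521 by limma.

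*Ifit3* was 1168, 1772, 1573, 1709 and 2928 normalized counts in WT2 to WT6, and 2757, 2137, 3295, 2749 and 3339.7 in the Siah2 KO tumors in the same order as above. WT6 was above 3 of the 5 Siah2 KO tumors, and the other WT tumors were below all of them. The means were 2856 ± 491 (SD, n = 5) and 1830 ± 658 (SD, n = 5), with a log2 fold change of 0.69, a standard error of 0.23 and an adjusted p of 0.0335 by limma (exact permutation p = 0.0317). This call rested on the full set of tumors. It was lost when any 1 of 8 of the tumors was left out (adjusted p up to 0.0772 by limma) and kept without WT6 or KO2. RefSeq lists a near copy, *Ifit3b*, at 34607530 to 34613403 on chromosome 19, and as the probe's sequence was not used here, the counts may come from both.

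*Ifit1*, which recognises RNA caps without the host's methyl marks, was not called. It was 417, 641, 638, 529 and 1040.0 normalized counts in WT2 to WT6, and 743, 604, 799, 786 and 1024 in the Siah2 KO tumors. No Siah2 KO tumor was above WT6, and 4 of 5 were above all other WT tumors. Its log2 fold change, 0.32, was not distinguishable from 0 (95% confidence interval −0.19 to 0.84, adjusted p = 0.289 by limma), an interval that also holds the values of *Ifit2* and *Ifit3*.

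*Isg15* encodes a small protein that is attached to other proteins, much as ubiquitin is, and is also secreted. It was 690.0, 1245, 1171, 1079 and 1623 normalized counts in WT2 to WT6 and 1947, 1659, 2103, 1752 and 2158 in the Siah2 KO tumors. The groups did not overlap, but the highest WT tumor, WT6, and the lowest Siah2 KO tumor, KO2, were close. The means were 1924 ± 216 and 1162 ± 335 (SD, n = 5 each), with a log2 fold change of 0.77, a standard error of 0.20 and an adjusted p of 0.0116 by limma (exact permutation p = 0.00794).

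The oligoadenylate synthetases make the messenger that activates RNase L, which degrades RNA. *Oas3* was 74.1, 95.8, 88.4, 82.8 and 133 normalized counts in WT2 to WT6, and 151, 163, 159, 198 and 155 in the Siah2 KO tumors. It had the largest log2 fold change of the 10 genes, 0.82 with a standard error of 0.15 (adjusted p = 0.00231 by limma, exact permutation p = 0.00794), and the groups did not overlap. The means were 165 ± 18.8 and 94.8 ± 22.7 (SD, n = 5 each), and with 62.8 to 150.5 counts before scaling it was also the gene with the fewest counts among those detected.

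*Oas2* was 283, 340.4, 328, 328 and 464 normalized counts in WT2 to WT6, and 430.2, 449, 472, 475 and 593 in the Siah2 KO tumors. WT6 was above KO1 and KO2, and the other WT tumors were below all Siah2 KO tumors. The log2 fold change was 0.48 with a standard error of 0.14 (adjusted p = 0.0209 by limma, exact permutation p = 0.0238), from means of 484 ± 63.6 and 349 ± 68.3 (SD, n = 5 each).

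*Oasl1* is a relative of these enzymes that in the mouse limits the translation of *Irf7*. It was 184, 261, 278, 295 and 416 normalized counts in WT2 to WT6, and 385, 305, 428, 487 and 538 in the Siah2 KO tumors. WT6 was above KO1 and KO2, and the remaining WT tumors were below all Siah2 KO tumors. The log2 fold change was 0.60 with a standard error of 0.22 and did not pass (adjusted p = 0.0511 by limma, exact permutation p = 0.0317). It was called without WT6 or KO2, and with a pseudocount of 10, a filter at a mean of 20 or an intensity trend (adjusted p between 0.0157 and 0.0428 by limma). In the 8 tumors that share a replicate number it was called with a replicate block (adjusted p = 0.0197 by limma). Without the block it was not called in these tumors (adjusted p = 0.115 by limma).

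*Irf7*, a transcription factor that is induced by interferon and drives further interferon production, was 701, 864, 687, 836 and 1168 normalized counts in WT2 to WT6, and 1250.0, 1128, 1413, 1490.5 and 1299.8 in the Siah2 KO tumors. The groups overlapped only through WT6, which was above KO2. The means were 1316 ± 141 and 851 ± 194 (SD, n = 5 each), with a log2 fold change of 0.65, a standard error of 0.15 and an adjusted p of 0.00678 by limma (exact permutation p = 0.0159).

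*Bst2*, or tetherin, holds budding virus at the cell surface. It was 2141, 2690.5, 2319.9, 2868 and 3500.1 normalized counts in WT2 to WT6, and 4811, 3717, 5228, 4453 and 4526 in the Siah2 KO tumors. The groups were apart, with KO2 nearest to WT6. The means were 4547 ± 555 and 2704 ± 530.4 (SD, n = 5 each), with a log2 fold change of 0.76, a standard error of 0.15 and an adjusted p of 0.00254 by limma (exact permutation p = 0.00794).

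*Mx1*, which encodes a dynamin-like GTPase and is defective in most inbred laboratory mice, was not detected. Its probe was at the floor in 9 of 10 tumors (4 WT and 5 Siah2 KO tumors), and its highest value was 2.18 in WT4. With its values at or near the floor, no fold change is given. RefSeq lists *Mx1* of GRCm38.p6, at 97447035 to 97462906 on chromosome 16, as a transcribed pseudogene.

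**Figure D2:**
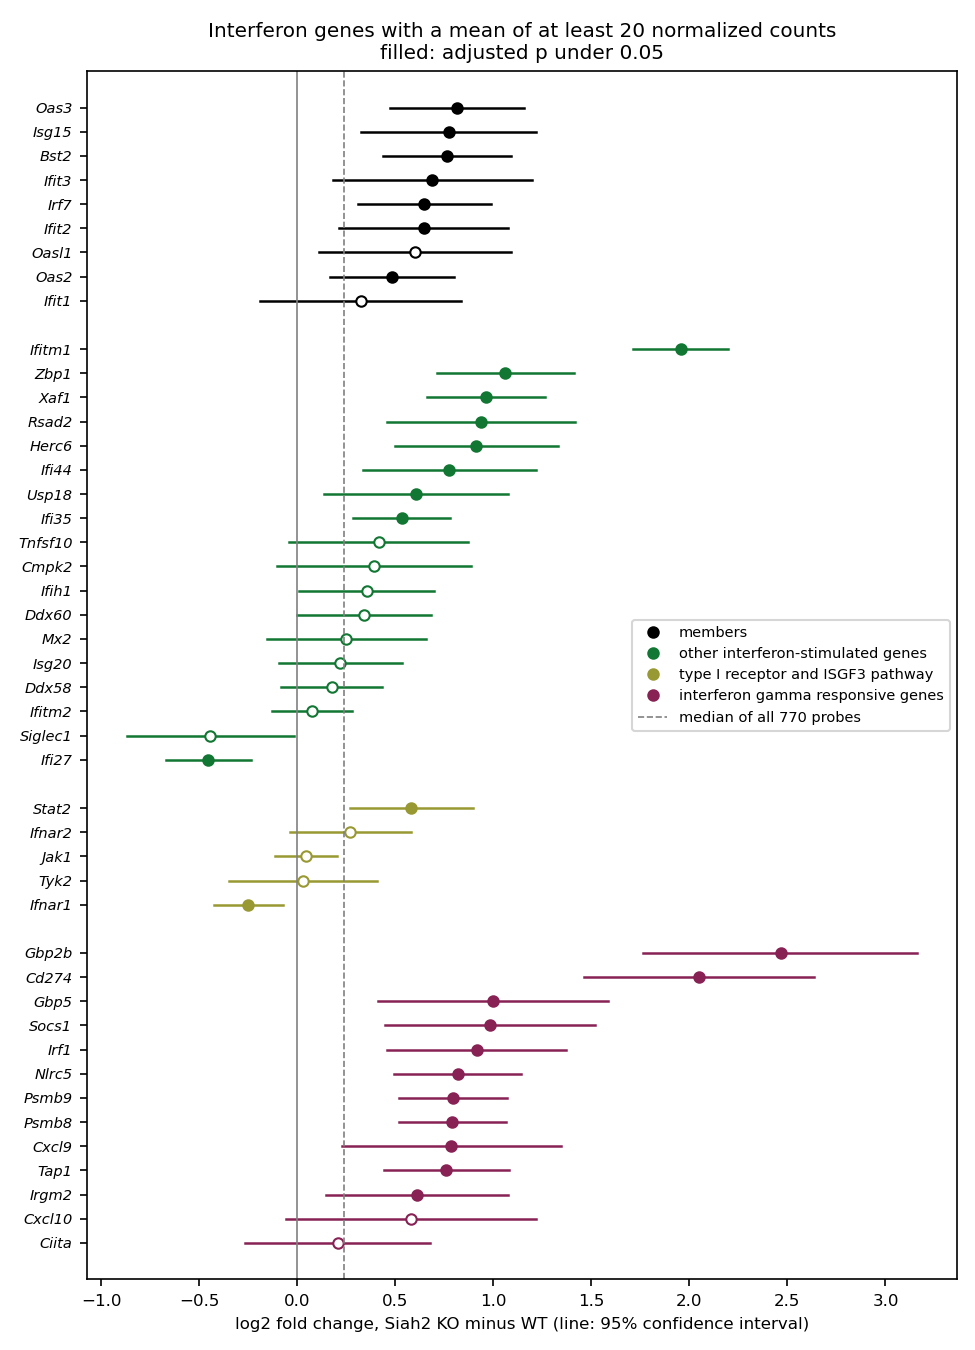
Log2 fold change, Siah2 KO minus WT (horizontal axis), with its 95% confidence interval from limma for the detected members and for the reported genes of 3 further interferon lists whose mean reached 20 normalized counts; filled points have an adjusted p under 0.05 and the dashed line is the median of all probes, 0.24. The 9 detected members lie between 0.32 and 0.82, and *Ifitm1*, *Gbp2b* and *Cd274* of the other lists lie furthest to the right.

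The detected members varied together from tumor to tumor within a genotype. WT6 was the highest WT tumor for 9 of the 9 detected members, where it was the highest WT tumor for 21.9% of the 602 probes with a mean of at least 20, and WT2 was the lowest for 8 of 9. Among the Siah2 KO tumors KO6 was the highest for 6 members and KO2 the lowest for 7. The mean log2 level of the 9 members was 8.89 in WT2, 9.26 in WT4, 9.29 in WT5, 9.37 in WT3 and 9.91 in WT6, and 9.71 in KO2, 9.93 in KO1, 10.05 in KO5, 10.06 in KO3 and 10.15 in KO6. WT6 was thus above KO2 and just below KO1, while the other WT tumors were below every Siah2 KO tumor. After each group's mean was taken off, the Pearson correlation of the members' log2 values over the 10 tumors was between 0.60 and 0.97 over the 36 pairs (median 0.85). These values share the tumor's RNA and its 1 scaling factor and are given as a description. The factor of WT6, 0.964, and its 573131 counts before scaling lay within the range of the other WT tumors. KO2 had the fewest counts before scaling (382885) and the largest factor (1.60) of all tumors, and their part in its low values was not tested.

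**Figure D3:**
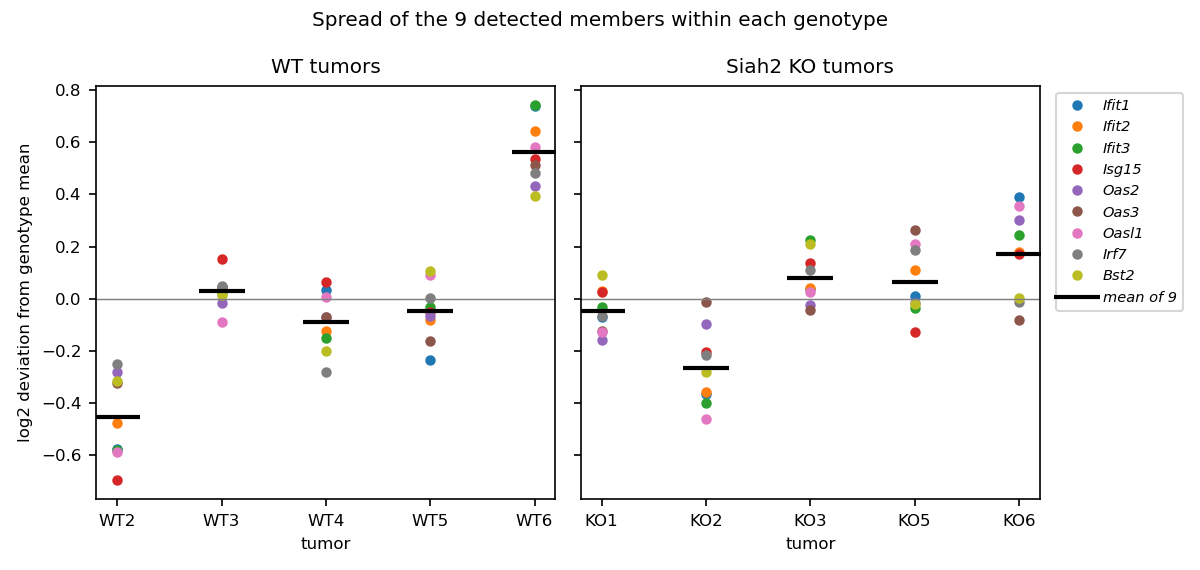
Log2 deviation of each detected member from its genotype mean (vertical axis) in each tumor, with the mean of the 9 members as a black line. WT6 is above the mean of its group, and WT2 and KO2 are below the means of theirs, for all 9 members.

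WT6 was the highest WT tumor for all 9 detected members, so leaving it out could only widen their differences. The values without it are a description and no test of the difference. Without it, limma called 8 of the 10 members higher, where 29.6% of all probes were called higher. *Oasl1* joined them (0.74 on the log2 scale, adjusted p = 0.0157 by limma), and *Ifit1*, at 0.51, did not pass (adjusted p = 0.0527 by limma). The groups then did not overlap for 8 of the 9 detected members, the exception being *Ifit1*, and for 27.8% of all probes. When each tumor was left out in turn, *Isg15*, *Oas2*, *Oas3*, *Irf7* and *Bst2* kept their calls each time.

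The 5 probes whose deviations within the genotypes were most like those of the members, out of 593 ranked over the 10 tumors, were *Stat2* (Pearson r = 0.93), *Usp18* (0.93), *Ifi44* (0.92), *Rsad2* (0.89) and *Ifi35* (0.87). *Stat2* encodes a part of ISGF3, and *Usp18* encodes the enzyme that removes ISG15 from proteins and dampens receptor signaling. The mean of 18 other interferon-stimulated genes followed the members with r = 0.98 over the 10 tumors. That of 13 interferon gamma responsive genes had r = 0.51, and the leukocyte, macrophage and T cell markers had r = 0.27, 0.06 and −0.33. WT6 was the highest WT tumor for 14 of the 18 other interferon-stimulated genes and for 3 of the 13 interferon gamma responsive genes.

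Within-tumor ratios between members were compared as well, a comparison added after the values were seen. Of the 36 pairs of detected members, 0 differed between the genotypes at an adjusted p under 0.05 over the pairs (smallest adjusted p = 0.143), and 8 had an exact permutation p under 0.05. *Ifit1* was in 6 of these 8 pairs. Its log2 ratio to *Ifit2* averaged −0.75 ± 0.13 in Siah2 KO tumors and −0.43 ± 0.13 in WT (SD, n = 5 each, exact permutation p = 0.0159), and its ratio to *Isg15* differed by −0.45 (exact permutation p = 0.00794). The ratio of *Oas2* to *Oas3* differed by −0.34 (exact permutation p = 0.0397). As the exact test cannot go below 0.00794, 1 pair alone could not pass the adjustment. At least 6 pairs at that value, or more pairs at somewhat higher values, were needed, so the count of 0 does not show that the members responded alike.

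Further interferon-stimulated genes were called in both directions. Of 20 listed, limma called 8 higher and 1 lower in Siah2 KO tumors, where 31.3% of all probes were called higher and 9.74% lower. Their median log2 fold change was 0.40, and that of all probes was 0.24. *Ifitm1*, a membrane protein that restricts virus entry, was 280.0, 282, 259, 279 and 256 normalized counts in WT2 to WT6, and 1288, 915, 1081, 1126 and 914 in the Siah2 KO tumors. The WT tumors were nearly alike, WT6 was the lowest of them, and the groups lay far apart, with a log2 fold change of 1.96 and a standard error of 0.11 (adjusted p = 3.94e-06 by limma, exact permutation p = 0.00794). Unlike the members, *Ifitm1* did not follow their pattern within the genotypes (r = −0.13 over the 10 tumors). *Zbp1*, a sensor of unusual nucleic acid helices, rose by 1.06 on the log2 scale, and *Xaf1*, which promotes cell death, rose by 0.96.

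*Ifi27*, a mitochondrial interferon-stimulated gene, fell. WT values ranged from 799 to 855 normalized counts and Siah2 KO values from 506 to 718, without overlap (log2 fold change −0.45, adjusted p = 0.00459 by limma). *Siglec1*, a macrophage receptor, averaged 270.4 ± 75.0 in Siah2 KO tumors and 359.5 ± 50.6 in WT (SD, n = 5 each), a difference that did not pass (log2 fold change −0.44, adjusted p = 0.0901 by limma). It was called lower without KO5 (−0.58), with median scaling (−0.71), with quantile normalization (−0.75) and relative to leukocyte genes (−0.996). *Ifitm2* had a log2 fold change of 0.08, which did not pass, and was called lower with quantile normalization (−0.26) and relative to leukocyte genes (−0.48).

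The type I interferons and *Ifnl2* had values near the floor, and interferon gamma is not covered here. All 5 ligand probes (*Ifna1*, *Ifna2*, *Ifna4*, *Ifnb1* and *Ifnl2*) had a mean under 20, 20 of their 50 values were at the floor, and their highest value was 9.77 for *Ifnb1* in KO1. The highest negative control value, 10.7, appears to be without background subtraction, so it sets no limit for these values. None was called by limma, and *Ifnb1* alone had an unadjusted p under 0.05. *Ifnb1* was at the floor in WT3, WT4, WT5 and KO5, and its other values were 2.27 in WT2, 4.72 in WT6, 9.77 in KO1, 7.32 in KO2, 8.83 in KO3 and 2.62 in KO6 (adjusted p = 0.0818 by limma). *Ifnb1* was called without WT6 (adjusted p = 0.0389 by limma) and without KO5 (adjusted p = 0.0224 by limma), at values of at most 9.77 normalized counts. A change in these ligands could not be measured reliably at this depth.

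Between ligand and target, *Stat2* rose and 1 receptor chain fell with reference gene scaling. *Stat2*, itself interferon-stimulated, ranged from 682 to 1191 normalized counts (WT) and from 1246 to 1491 (Siah2 KO) without overlap, and its log2 fold change was 0.58 (adjusted p = 0.00789 by limma). *Ifnar1* was 1041 to 1151 in WT and 836 to 997 in Siah2 KO tumors, a change of −0.25 on the log2 scale (adjusted p = 0.0289 by limma). The call of *Ifnar1* was lost when WT2, WT4, WT5, KO1 or KO2 was left out (adjusted p between 0.0574 and 0.0700 by limma). That of *Stat2* was lost with median scaling (0.32 on the log2 scale), quantile normalization (0.20) and relative to leukocyte genes (0.03). *Ifnar2* (0.27), *Jak1* (0.05) and *Tyk2* (0.03) did not pass, and *Jak1* was called lower with quantile normalization (−0.37).

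Upstream of the ligands, limma called 1 of 10 sensor and adaptor genes, and it was higher, where 31.3% of all probes were called higher. *Ikbke*, a kinase that phosphorylates interferon regulatory factors and is inducible by interferon, was 144 to 187 normalized counts (WT) against 226 to 320.2 (Siah2 KO), or 0.65 on the log2 scale (adjusted p = 0.00218 by limma). The DNA receptor gene *Tlr9* stood at 0.61 (adjusted p = 0.0541 by limma) and the RNA receptor gene *Tlr7* at 0.25 on the same scale. The lowest log2 fold changes were those of *Mavs* (−0.03), *Irf3* (0.07) and *Tmem173* (0.10), which encodes STING. None of these 5 passed. *Tlr9* did so without WT6 or without KO2, and without WT6 *Tbk1*, the kinase related to *Ikbke* and named here after its value was seen, was called as well. *Mavs* was called lower with median scaling (−0.30), quantile normalization (−0.30) and relative to leukocyte genes (−0.59).

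Of the 14 genes listed as interferon gamma responsive, 12 were called higher and 0 lower. Among all probes, 31.3% were called higher and 9.74% lower. The 14 genes had a median log2 fold change of 0.81, against 0.24 for all probes. For 9 of these 14 genes the groups did not overlap, with the higher values in Siah2 KO tumors, which held for 24.5% of all probes. *Gbp2b*, a guanylate-binding protein, was 78.3 to 199 normalized counts (WT) against 508 to 1161 (Siah2 KO), or 2.46 on the log2 scale (adjusted p = 0.000390 by limma). *Cd274*, which encodes the checkpoint ligand PD-L1, was 335 to 526 against 1175 to 3178, or 2.05 on the log2 scale (adjusted p = 0.000394 by limma). *Gbp5*, at 323 to 649 against 670.2 to 1577, was called as well (adjusted p = 0.0121 by limma). At the low end, *Irgm2* (0.61) was called, a call lost when any of WT2, WT4, WT5, KO1, KO3 or KO5 was left out, and *Cxcl10* (0.58) and the class II transactivator *Ciita* (0.21) were not. Many of these genes also respond to type I interferon, as many of the members respond to interferon gamma, and the difference between the lists was not tested.

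The content of leukocyte RNA moved with the genotype too. For the marker counts that follow, 31.3% of all probes were called higher and 9.74% lower. Of 8 general leukocyte genes, including *Ptprc* (CD45) and *Itgb2*, 7 were called higher, with a median log2 fold change of 0.54. Their summed level was 4643 to 5710 normalized counts in WT tumors and 6860 to 10324 in Siah2 KO tumors. For T cells 4 of 6 markers were called higher, with a summed level of 432 to 579 in WT and 644 to 1138 in Siah2 KO tumors. Macrophage markers gave 1 higher and 1 lower of 6, dendritic cell, neutrophil and B cell markers 1 higher of 6 each, and all 6 B cell markers had a mean under 20. Of the fibroblast markers 4 of 5 were called lower, of the endothelial markers 1 of 6 higher and 2 lower, and of 3 melanoma cell markers (*S100b*, *Mcam* and *Cspg4*) 2 were called lower, with *S100b* having a mean under 20. The part of these shifts in the members' difference was not tested.

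Expressed relative to the leukocyte genes of the same tumor, the members' difference was smaller, limma called none, and 1 had an unadjusted p under 0.05. The largest log2 fold change of a member on this scale was 0.26 (*Oas3*, adjusted p = 0.180 by limma), *Bst2* had 0.21, and *Ifit1* and *Oas2* were at −0.23 and −0.07, while 10.1% of all probes were called higher. The median of all probes moved by −0.55 on this scale. *Ifitm1* (1.40), *Gbp2b* (1.91) and *Cd274* (1.49) were called higher on it, and *Ifnar1*, *Ifnar2*, *Jak1* and *Tyk2* were called lower. With median scaling, which called 21.2% of all probes higher and moved their median by −0.25, 3 members were called (*Oas3* at 0.55, *Bst2* at 0.50 and *Irf7* at 0.38). For scaling to the positive control probes, each tumor's factor was divided out of the gene values but not out of the control values. The deposited control values appear to hold the factor too, as the highest negative control, 10.72, is not a whole count. The factor may thus be taken off once too often, and the size and direction of this shift are not relied on. As run, this scaling moved the median by −0.16 and called 95 probes in all. With it 0 members were called or had an unadjusted p under 0.05 by limma, and *Oas3*, the highest of them, stood at 0.65 on the log2 scale (adjusted p = 0.231 by limma). On that scale limma also called only 1 of the 20 other interferon-stimulated genes (*Ifitm1*), 0 of the receptor and ISGF3 genes reported here and 2 of the 14 interferon gamma responsive genes (*Gbp2b* and *Cd274*).

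**Figure D4:**
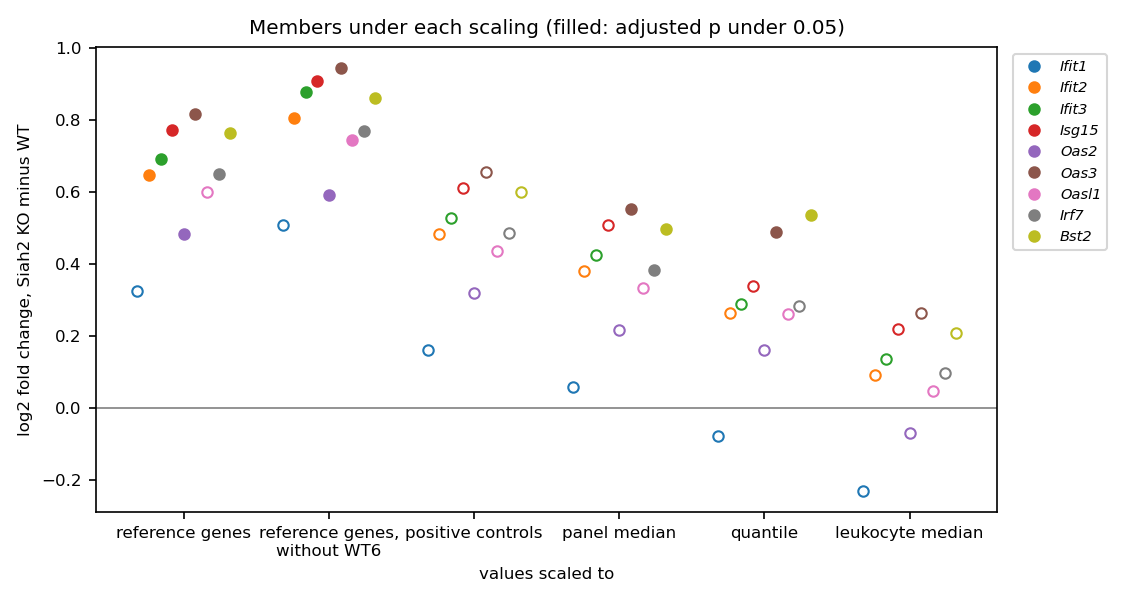
Log2 fold change, Siah2 KO minus WT (vertical axis), of the 9 detected members under each scaling of the tumors and, for the reference gene scaling, without WT6; filled points have an adjusted p under 0.05. Values are highest without WT6 and lowest by the leukocyte median, and *Ifit1* is below 0 with quantile normalization (−0.08) and by the leukocyte median (−0.23). The positive control scaling may take off each tumor's factor once too often, and its points are not relied on.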

How the data were processed

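RNA of each tumor (100 ng) was counted on NanoString's mouse immune profiling panel and processed in nSolver by the authors. The deposited signal is a normalized count per probe, scaled so that 20 reference genes have an equal geometric mean in all tumors. The values also show that a background was subtracted, with a floor of 1, before this scaling, and that no scaled value was left under 1. The size of that background is not given in the sources used here, so raw counts could not be restored and no count test was run. Each tumor's factor was recovered from the steps between its low values. Groups come from the labels, which give no cartridge. The series' design text names another model than the labels and the paper, which were followed.

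All 770 probes (750 endogenous and 20 reference) were compared on log2(normalized count + 1) with limma 3.58.1 (lmFit, eBayes; R 4.3.3), two-sided, and p adjusted over all of them by Benjamini-Hochberg. This scale understates fold changes of low genes. Exact permutation tests of single genes (Python 3.11.15, scipy 1.17.1) are unadjusted. The scripts were tested on simulated data.

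The members and gene lists were chosen with earlier results of these data known. Named are all members and ligands, the 3 highest and 3 lowest log2 fold changes of each other interferon list among genes whose mean reached 20, the 5 probes most like the members, and marker genes. Alternatives were median, quantile, positive control and leukocyte scaling, a pseudocount of 10, a floor of 20, a filter at a mean of 20, the endogenous probes alone, the methods' test (equal or unequal variances), an intensity trend, a replicate block, the same 8 tumors without it, and leaving out each tumor. Other experiments of the study were not analysed here. A gene of the receptor list that the rule would name is not reported here.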

Additional observations from a re-analysis of the deposited data

Results flagged for a closer look

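In 2 of 72 groups of 5 tumors, 1 tumor lay apart from the others by Dixon's test, where chance gives about 1 in 20 groups. *Ifit2* in the Siah2 KO tumors was lowest in KO2, at 1024 normalized counts, with the others between 1339 and 1484. *Oas3* in the Siah2 KO tumors was highest in KO5, at 198 normalized counts.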

How the results depend on the processing

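The log2 scale depends on the scaling. Positive control scaling used the control values as deposited, which may take off each tumor's factor once too often, and is not relied on. As run, it called 95 probes in all, 0 members, 1 of the other interferon-stimulated genes, 0 of the receptor and ISGF3 genes, 0 induction genes and 2 interferon gamma responsive genes. By the leukocyte median 0 members were called (median log2 fold change 0.094), 5 other interferon-stimulated (2 higher, 3 lower), 4 receptor and ISGF3 (all lower), 3 induction (all lower) and 2 interferon gamma responsive genes (both higher). Median scaling called 3 members, and quantile normalization 2 (median 0.27, where 19.9% of all probes were called higher), and each called 2 induction genes, *Ikbke* higher and *Mavs* lower. A pseudocount of 10, a filter at a mean of 20 and the intensity trend each called 2 induction genes, *Ikbke* and *Tlr9*. With the methods' test, 8 members had p under 0.05, and after Benjamini-Hochberg 6 passed with equal and 5 with unequal variances (379 and 365 of all probes at p under 0.05, 314 and 289 after adjustment). Leaving out each tumor gave 5 to 8 members, 0 to 1 ligands (*Ifnb1* without WT6 or without KO5) and 1 to 3 induction genes.

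Reversed values were called lower for *Ifitm2* and *Jak1* with quantile normalization, and for *Ifitm2*, *Jak1*, *Tyk2*, *Ifnar2* and *Irf3* by the leukocyte median, and none of the others given here passed. With median scaling the reversed values were *Mx1* −0.13, *Ifna1* −0.12, *Ifitm2* −0.19, *Tyk2* −0.23, *Jak1* −0.22, *Tlr7* −0.016, *Irf3* −0.19, *Tmem173* −0.16 and *Ciita* −0.056. With positive control scaling as run, whose direction of shift is not relied on, they were *Mx1* −0.087, *Ifna1* −0.066, *Ifitm2* −0.087, *Tyk2* −0.13, *Jak1* −0.12, *Irf3* −0.090 and *Tmem173* −0.056. With quantile normalization they were *Ifit1* −0.079, *Mx1* −0.063, *Ifna1* −0.16, *Ifitm2* −0.26, *Ifnar2* −0.12, *Tyk2* −0.27, *Jak1* −0.37, *Tlr7* −0.047, *Irf3* −0.24, *Tmem173* −0.18 and *Ciita* −0.093. By the leukocyte median they were *Ifit1* −0.23, *Mx1* −0.54, *Oas2* −0.071, *Ifna1* −0.48, *Ifnl2* −0.12, *Ifitm2* −0.48, *Ifnar2* −0.28, *Tyk2* −0.52, *Jak1* −0.51, *Tlr7* −0.30, *Irf3* −0.48, *Tmem173* −0.45, *Ciita* −0.35 and *Ifi35* −0.021. A pseudocount of 10 turned *Ifna4* to 0.021. Leaving out 1 tumor gave *Mx1* −0.030 to 0.14, *Ifna1* −0.22 to 0.29, *Ifna4* −0.33 to 0.17, *Tyk2* −0.063 to 0.12 and *Mavs* −0.075 to 0.042. The cause of these changes was not tested.

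Same-numbered tumors of the 2 groups correlated in their deviations at 0.05, 0.14, 0.18 and 0.49 (numbers 2, 3, 5 and 6). The number 2 tumors had the lowest and the number 6 tumors the highest mean member level in both groups. As the labels do not say that the numbers pair tumors, the main fit left them unpaired, and whether they do was not tested. With the replicate block 8 members were called in the 8 tumors that share a number (24.7% of all probes called higher), *Oasl1* among them (adjusted p = 0.0197 by limma), and 4 in these tumors without the block (23.6%). *Ifnar1* lost its call in both fits (adjusted p = 0.165 and 0.128 by limma), and *Ifna1* was −0.043 and *Ifna4* 0.095 in both fits. Genes near the floor, *Mx1* and the ligands, have no usable order at this depth.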
